A study of Mus musculus with 30 samples.

Results

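The 9 genes described here are genes of myelin and of mature oligodendrocytes, followed in the cervical spinal cord after stroke: Mbp, Mog, Cnp, Mobp, Cldn11, Myrf, Opalin, Mal and Gsn. They were taken by name, and all 9 were found among the 16995 genes of the deposited table. Adult female C57BL/6 mice received a photothrombotic stroke of the right sensorimotor cortex, and the middle laminae of the cervical hemicord that had lost its corticospinal input were dissected at 4, 7, 14, 28 or 42 days after stroke (dpi). The comparison group (Ctrl in the labels) was sham-operated. The labels give it no time after surgery, and the same sham animals served every time point. Stroke and time since surgery therefore cannot be told apart in comparisons with sham. Values were available for 5 sham animals, 4 animals at 4 dpi and 5 animals at each later time point. The tissue was trimmed by hand under a microscope, so each sample held gray matter with an unmeasured share of white matter.

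Oligodendrocytes wrap axons of the central nervous system in compact myelin, a stack of membrane that is rich in cholesterol and held together by a small set of abundant proteins. Their differentiation is driven by the transcription factors SOX10 and MYRF, of which MYRF is switched on when precursors mature and is needed to keep the myelin genes active. Mbp encodes myelin basic protein, which joins the inner faces of the membrane, and Mobp encodes a related cytoplasmic protein of compact myelin. Cnp encodes a phosphodiesterase of the channels that stay open in the sheath, Mog a glycoprotein of the outermost layer, and Cldn11 the claudin that forms the tight junctions between the layers. Mal encodes a proteolipid of membrane sorting, Gsn the actin-severing protein gelsolin, and Opalin a transmembrane glycoprotein of mature oligodendrocytes. Gelsolin is also made by cells outside the lineage.

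In mm10, Mog was listed at chr17:37010743-37023398 (minus strand), Cnp at chr11:100574904-100591729 (plus), Mobp at chr9:120149707-120181484 (plus) and Cldn11 at chr3:31149920-31164324 (plus). Mal was listed at chr2:127633226-127656695 (minus), Gsn at chr2:35256380-35307892 (plus), Myrf at chr19:10208272-10240748 (minus) and Opalin at chr19:41062474-41077113 (minus). The library kit does not mark strand, and the span of Cnp overlaps that of Dnajc7 on the opposite strand. The span of Mog likewise overlaps that of Gm22388, a small RNA gene. Whether exons overlap, so that reads could belong to either gene, was not tested.

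The RefSeq promoter table (GRCm38.p6) held an entry for 7 of the 9 genes, Gsn with 3 starts. Of the genes that were lower at 28 dpi, 4 are shown because they differ in the motifs of the factors above although their mRNAs were lower together. Each line gives the 250 bases before the transcription start, on the gene's own strand. Capitals mark the MYRF motif (CTGGCAC or CTGGTAC) and the SOX core (ACAAAG or ACAATG), searched on both strands. The 2 motifs do not overlap in these windows.
Mog, chr17:37023399-37023648, minus strand: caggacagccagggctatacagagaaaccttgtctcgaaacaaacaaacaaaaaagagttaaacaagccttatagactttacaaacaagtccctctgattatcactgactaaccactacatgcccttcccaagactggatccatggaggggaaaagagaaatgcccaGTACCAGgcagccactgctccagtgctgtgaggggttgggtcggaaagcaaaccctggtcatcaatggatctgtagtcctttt
Cnp, chr11:100574689-100574938, plus strand: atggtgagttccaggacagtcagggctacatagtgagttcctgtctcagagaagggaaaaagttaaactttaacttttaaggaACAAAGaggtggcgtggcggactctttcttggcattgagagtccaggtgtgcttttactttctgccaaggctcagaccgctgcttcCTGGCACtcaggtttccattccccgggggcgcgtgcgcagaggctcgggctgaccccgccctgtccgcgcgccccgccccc
Mobp, chr9:120149492-120149741, plus strand: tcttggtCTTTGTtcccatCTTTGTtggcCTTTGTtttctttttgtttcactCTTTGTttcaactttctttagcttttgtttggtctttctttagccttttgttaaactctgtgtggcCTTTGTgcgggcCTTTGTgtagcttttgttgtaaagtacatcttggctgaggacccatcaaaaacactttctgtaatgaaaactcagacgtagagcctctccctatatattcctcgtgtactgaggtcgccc
Cldn11, chr3:31149670-31149919, plus strand: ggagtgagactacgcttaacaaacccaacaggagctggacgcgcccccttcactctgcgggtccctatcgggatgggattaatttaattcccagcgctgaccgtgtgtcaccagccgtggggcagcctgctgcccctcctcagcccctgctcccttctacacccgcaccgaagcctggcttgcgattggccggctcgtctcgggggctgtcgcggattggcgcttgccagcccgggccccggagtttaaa
Mog and Cnp each held 1 MYRF motif, with its first base at -83 and -81 from the start. Mobp held 6 SOX cores and no MYRF motif, Cnp held 1 SOX core, and Cldn11 held neither. Mal and the 3 Gsn starts also held neither, and Opalin held 1 SOX core at -139. Among 32851 promoters of this length, 5.93% held the MYRF motif and 25.2% held the SOX core, so these matches describe the letters only.

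The values are normalized CPM, and no read counts were analysed here. Residual ribosomal RNA set some animals apart: Rn18s-rs5, an 18S ribosomal RNA gene, exceeded 200000 in 8 animals (2 at 14 dpi, 4 at 28 dpi and 2 at 42 dpi) and in no sham animal. The sham animal A12-2 also stood apart, with the highest value of its group for each of the 9 genes. All 9 genes were detected in every animal, with Mbp never under 1777 CPM, so the markers of mature oligodendrocytes were present throughout. Of 8 Schwann cell genes, which would mark peripheral myelin of nerve roots, the defining genes Prx, Pmp2, Egr2 and Cldn19 had no row in the table. In bulk tissue, fewer oligodendrocytes and less RNA per oligodendrocyte cannot be told apart.

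Per kilobase of merged exon, Mbp was the most abundant of the 9 in sham animals (340 CPM per kb), followed by Mobp (179), Cnp (99.4), Mal (85.9), Cldn11 (74.0), Mog (42.9) and Gsn (29.7). Myrf and Opalin were far lower (5.63 and 5.57 CPM per kb). This order of the first 7 genes was the same at 28 dpi, where Mbp had 270 and Gsn 20.6 CPM per kb. The spread between sham animals ranged from a coefficient of variation of 10.8% for Mal to 22.6% for Gsn.

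**Figure D1:**
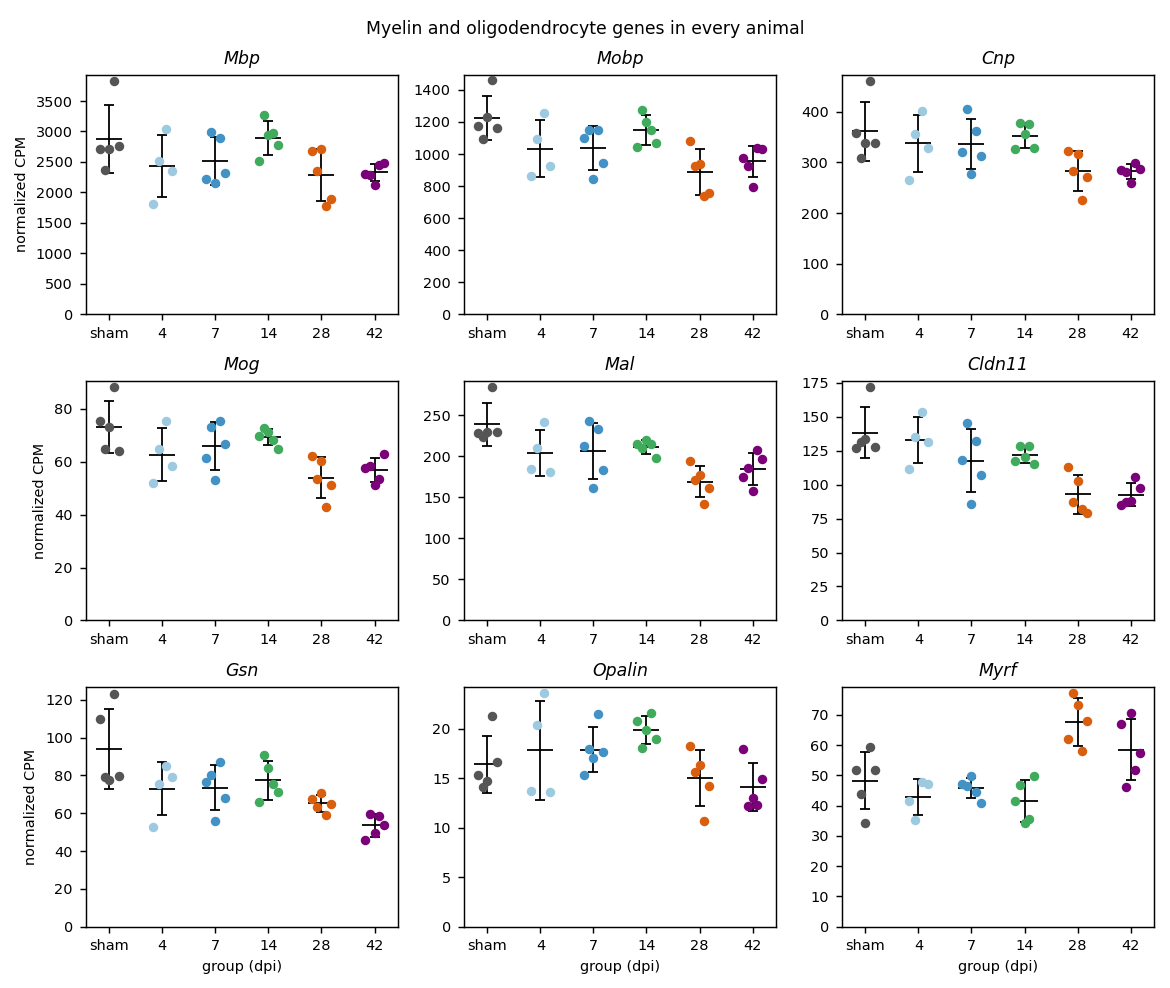
Normalized CPM (y axis, linear, from 0) of the 9 genes in each animal (points) of the sham group and at 4 to 42 dpi (x axis), with the mean and SD of each group (bars). At 28 dpi the points of Mog, Mobp, Mal, Cldn11 and Gsn all lie below the sham points, whereas 4 of 5 Myrf points lie above them.

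Most of the genes changed at 28 dpi. Against sham, 6 of the 9 fell and 1 rose (limma, Benjamini-Hochberg adjusted over all genes), while 13.0% of all genes tested fell and 11.9% rose. Cldn11 lay at 113.2, 87.0, 102.7, 82.4 and 78.8 CPM at 28 dpi and at 127.0, 131.7, 133.4, 171.9 and 127.7 in sham animals. All 5 animals at 28 dpi were thus below the lowest sham animal. Cldn11 fell by 33.0% (log2 fold change -0.58 ± 0.11 SE, adjusted p = 0.00163).

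Mal, the sorting proteolipid, followed the same pattern. Its values were 193.5, 170.5, 177.6, 142.1 and 161.5 CPM at 28 dpi and 227.9, 222.8, 229.4, 284.8 and 228.9 in sham animals. The groups did not overlap, and Mal fell by 29.2% (log2 fold change -0.50 ± 0.10, limma adjusted p = 0.00173). Mobp, at 1084.1, 924.0, 939.8, 739.8 and 758.7 CPM against 1173.9, 1096.5, 1233.4, 1460.0 and 1160.8 in sham animals, did not overlap with sham either, although A3-1 came close to the lowest sham animal. Mobp fell by 27.8% (log2 fold change -0.47 ± 0.11, limma adjusted p = 0.00473).

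The surface glycoprotein gene Mog lay at 62.3, 53.3, 60.1, 43.0 and 51.3 CPM at 28 dpi and at 75.6, 64.8, 73.0, 88.4 and 63.9 in sham animals. The groups did not overlap and Mog fell by 26.1% (log2 fold change -0.44 ± 0.10, limma adjusted p = 0.00430). Gsn lay at 67.7, 63.5, 70.8, 59.1 and 64.8 CPM against 110.1, 79.0, 77.6, 123.1 and 79.8 and fell by 29.2% (log2 fold change -0.50 ± 0.13, limma adjusted p = 0.00779). Within the sham group A11-1 and A12-2 were well above the other 3 animals for Gsn. Over all genes, 3.75% had every animal at 28 dpi below every sham animal.

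Cnp fell less, from 362 ± 58.8 (SD, n = 5) to 283 ± 39.3 CPM (n = 5, log2 fold change -0.35, limma adjusted p = 0.0207), and 3 of the 5 animals were below all sham animals. It did not pass the test without sham animal A12-2 (adjusted p = 0.0791) or without A4-3 of the 28 dpi group (0.0803), nor in the fit of only the 2 groups compared (0.0583), where 6 members passed. Mbp had a similar difference (log2 fold change -0.34, 95% interval -0.62 to -0.06) but a wider spread and did not pass (limma adjusted p = 0.0702). Its values ranged from 1777 to 2709 CPM at 28 dpi and from 2371 to 3832 in sham animals. None of these falls reached a fold of 1.5.

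Myrf moved the other way. The gene of the myelin transcription factor lay at 62.0, 77.1, 73.1, 58.0 and 67.9 CPM at 28 dpi and at 51.9, 43.9, 34.3, 59.3 and 51.8 in sham animals. Only A4-3 was within the sham range. Myrf rose by 41.3% (log2 fold change 0.50 ± 0.13, limma adjusted p = 0.00679). When the values of every animal were rescaled to the same sum, the log2 fold change of Myrf became -0.28 (limma adjusted p = 0.327). That of the median gene became -0.73, so that Myrf stayed 0.44 above the median gene. The sums include Rn18s-rs5. They were 1345048 to 2256910 in the 28 dpi animals other than A4-1, 790540 in A4-1 and 777344 to 818510 in sham animals. Those other 28 dpi animals had 291950 to 779160 for Rn18s-rs5, against 30321 to 52929 in sham animals. This scaling is therefore not a check independent of ribosomal RNA. Of the genes called with that scaling 0.302% were higher, against 47.8% as deposited, and the other 8 members were all lower, among them Cldn11 (-1.36) and Mal (-1.29). The ratio of Myrf to Mal, which no rescaling of a whole animal changes, lay between 0.320 and 0.452 at 28 dpi and between 0.150 and 0.228 in sham animals.

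Opalin, the other low-abundance member, was at 15.0 ± 2.83 CPM at 28 dpi and 16.4 ± 2.89 in sham animals (n = 5 each, log2 fold change -0.13, limma adjusted p = 0.529). The 95% interval of its difference, from -0.42 to 0.16, included falls as large as those of Cnp.

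**Figure D2:**
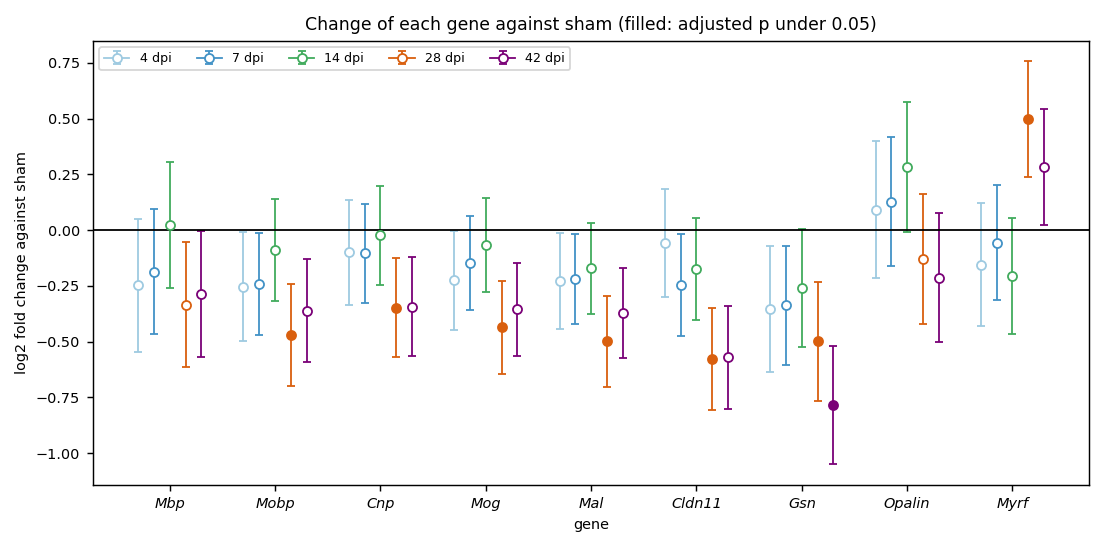
Log2 fold change of each gene (x axis) against sham (y axis) at 5 time points, with 95% intervals from limma. Filled points had an adjusted p under 0.05: 6 falls and the rise of Myrf at 28 dpi, and the fall of Gsn at 42 dpi.

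The 28 dpi group largely coincided with high ribosomal RNA, because only A4-1 of that group was below 200000 for Rn18s-rs5. The parts of group and ribosomal RNA in the result therefore cannot be told apart, also where calls are lost below. With the level of Rn18s-rs5 as a covariate, the log2 fold changes at 28 dpi stayed close to those above (Cldn11 -0.55, Mal -0.50, Myrf 0.45), but neither the 9 genes nor any other gene passed the limma test, with 7 of the 9 and 3751 of all genes at an unadjusted p under 0.05. Their adjusted p values were then 0.0567 for Cldn11, 0.0563 for Mal and 0.113 for Myrf. Without the 8 animals, A4-1 stood alone for 28 dpi and was assumed to vary like the other groups, so only effect sizes are given. Cldn11 was then at -0.42, Mal at -0.42, Gsn at -0.38, Mobp at -0.375, Mog at -0.27 and Cnp at -0.18. Mbp was at -0.067, Opalin at 0.0068 and Myrf at 0.62. A4-1 itself had 44755 for Rn18s-rs5, within the sham range, and was below every sham animal for Cldn11, Mal, Mobp, Mog and Gsn and above every sham animal for Myrf.

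At 14 dpi, the 2 animals with the highest Rn18s-rs5 (A5-3 and A6-3) had 209.6 and 197.5 CPM of Mal, and the other 3 had 214.4 to 219.1. Their Myrf values were 46.8 and 49.8 CPM against 34.2 to 41.6 in the other 3. Opalin was at 18.1 and 19.0 CPM in these 2 animals and at 19.9 to 21.6 in the other 3. For the other 6 genes the 2 animals did not lie together: A5-3 had the highest value of the 14 dpi group for Mbp (3266.2), Mog (72.7), Cnp (378.7), Mobp (1271.9), Cldn11 (128.6) and Gsn (91.1), and A6-3 had the lowest for Mog (65.0) and Cldn11 (114.9). The part of ribosomal RNA in the 28 dpi result beyond these values was not tested.

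**Figure D3:**
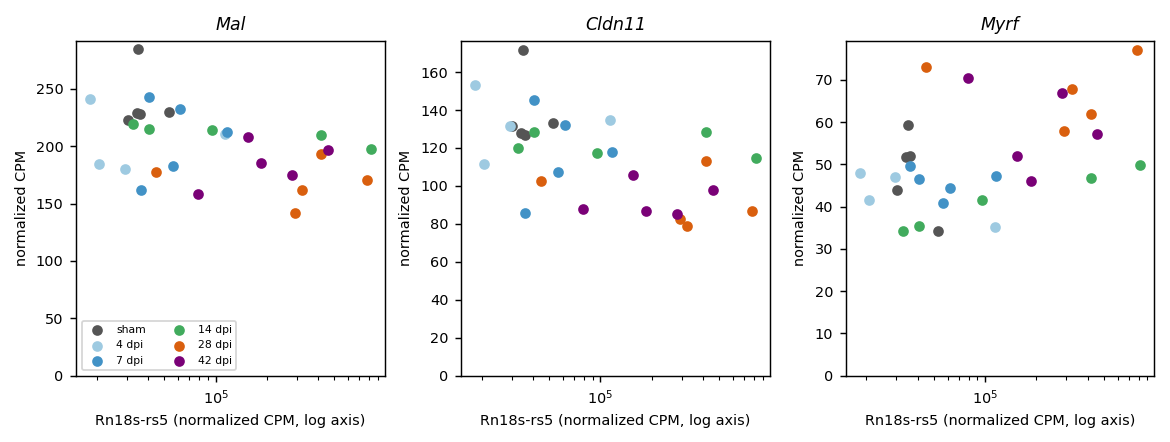
Normalized CPM of Mal, Cldn11 and Myrf (y axes, linear) against that of Rn18s-rs5 (x axis, log scale), 1 point per animal and 1 color per group. The single 28 dpi animal with low Rn18s-rs5 (44755) had 177.6 CPM of Mal, below all sham animals, and 73.1 of Myrf, above all sham animals.

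Gene length and GC content also moved with the comparison over all genes. After correction for both, 33.1% of the genes called at 28 dpi were higher, against 47.8% without correction. The members kept their direction under the correction, with Mobp at -0.54, Cldn11 at -0.55, Mal at -0.48, Mog at -0.41 and Myrf at 0.41 (limma adjusted p between 0.000736 and 0.0126), and Mbp also passed (-0.43).

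At earlier time points none of the 9 genes passed the limma test (4 at 4 dpi, 4 at 7 dpi and 0 at 14 dpi had an unadjusted p under 0.05, as had 874, 992 and 1973 of the 16995 genes), and few genes did over the whole table: 0.0177% fell at 4 dpi, 0.0294% at 7 dpi and 0.00588% at 14 dpi. The members were nevertheless mostly on the lower side. At 4 dpi 8 of 9 had a log2 fold change below 0 (median -0.23), at 7 dpi 8 of 9 (median -0.19) and at 14 dpi 7 of 9 (median -0.09), while the median of all genes was within 0.01 of 0 each time. All these comparisons share the sham animals. Microglial markers moved at the same time: all 6 were above 0 at 4, 7 and 14 dpi (medians 0.55, 0.22 and 0.35). At 4 dpi 1 of the 6 rose by limma, as did 15 of the 16995 genes. The sum of the 6 was then 120.1 to 183.3 CPM, against 95.4 to 107.8 in sham animals. Without the high sham animal A12-2, Cldn11 at 4 dpi, Myrf at 7 dpi, and Mog and Cnp at 14 dpi changed sign. Mal at 14 dpi lay between 197.5 and 219.1 CPM, below all sham animals (as did 0.953% of all genes), and did not pass (-0.17 on the log2 scale, adjusted p = 0.493 by limma).

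Opalin had a mean above that of sham animals at each of these time points, without passing the test: it was at 17.8 ± 4.99 CPM at 4 dpi (n = 4), 17.9 ± 2.27 at 7 dpi (n = 5) and 19.9 ± 1.39 at 14 dpi (n = 5). By limma the 14 dpi difference was 0.28 on the log2 scale (adjusted p = 0.440), and 1 of 5 animals was above all sham animals. At 4 dpi its difference changed sign without A10-1 (-0.053), and at 14 dpi the mean of Mbp was also above that of sham animals.

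The step from 14 to 28 dpi did not involve the sham group. Between these time points 7 members fell and Myrf rose, and over all genes 21.9% fell and 21.0% rose (limma). Myrf lay between 34.2 and 49.8 CPM at 14 dpi and between 58.0 and 77.1 at 28 dpi, without overlap, and rose by 62.8% (log2 fold change 0.70 ± 0.13, adjusted p = 1.03e-04). The falls were -0.41 on the log2 scale for Opalin (adjusted p = 0.0201), -0.40 for Cldn11 (0.00500), -0.38 for Mobp (0.00770), -0.37 for Mog (0.00475), -0.36 for Mbp (0.0353), -0.33 for Mal (0.00917) and -0.33 for Cnp (0.0163). All 5 animals at 28 dpi were below all 5 at 14 dpi for Mog, Cnp, Cldn11 and Mal, as they were for 11.8% of all genes, and 10.2% of all genes had every 28 dpi animal above every 14 dpi animal. Gsn did not pass (log2 fold change -0.24, adjusted p = 0.139).

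These calls held with Rn18s-rs5 as a covariate, where 7 members again fell and Myrf again rose. They were fewer in other fits. Mbp did not pass without A5-3 (adjusted p = 0.0902), A5-4 (0.0619) or A6-2 (0.0640) of the 14 dpi group or without A4-3 (0.125) or A4-4 (0.0996) of the 28 dpi group. It also did not pass with quantile normalization (-0.16, adjusted p = 0.349), with median centring (0.0517) or in the fit of only the groups compared (0.0508). Without A4-3 5 members passed, and with the same sum in every animal 0 did. With that scaling the 7 falls were larger (-0.59 to -0.67), Myrf was at 0.44 and the median gene was at -0.22. Without the 8 animals with high ribosomal RNA, A4-1 stood alone for 28 dpi and Myrf was at 0.98. The falls were then smaller: Mbp -0.048, Cnp -0.15, Mog -0.21, Cldn11 -0.25, Mobp -0.27, Mal -0.28 and Opalin -0.34.

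At 42 dpi Gsn was the member that passed the test, and 0.0118% of all genes fell. Gsn lay at 45.7, 59.6, 49.8, 58.5 and 54.0 CPM, below every sham animal (77.6 to 123.1) and, except for A1-2, below every animal at 28 dpi (59.1 to 70.8). It fell by 41.9% (log2 fold change -0.78 ± 0.13, limma adjusted p = 0.00699), which is past a fold of 1.5, as it was for 0.0118% of all genes in that direction. No member reached a log2 fold change of 1.5 in either direction in any comparison. Without A12-2 of the sham group its adjusted p was 0.0577, without A1-1 of the 42 dpi group 0.0572, and without the 8 animals with high ribosomal RNA 0.127 (log2 fold change -0.72).

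Cldn11 at 42 dpi was at 85.2, 86.9, 87.9, 105.7 and 97.7 CPM. No animal came up to the sham values. The difference (-0.57 on the log2 scale) was as large as at 28 dpi but did not pass (limma, adjusted p = 0.0538). Mal (-0.37), Mobp (-0.36), Mog (-0.36) and Cnp (-0.34) had adjusted p values between 0.107 and 0.135. For these 4 genes, Cldn11 and Gsn, all 5 animals lay below all sham animals, which held for 1.10% of all genes. Mbp was at 2330 ± 139 CPM (n = 5, log2 fold change -0.29, adjusted p = 0.325) and Opalin at 14.1 ± 2.44 CPM (-0.21, adjusted p = 0.516). Myrf spread from 46.0 to 70.5 CPM, with 2 of 5 animals above all sham animals (0.28, limma adjusted p = 0.291).

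From 28 to 42 dpi no member passed the limma test (1 at an unadjusted p under 0.05, as were 3583 of the 16995 genes), and over all genes 0.494% fell and 1.45% rose. Of the 9 members 6 had a difference above 0. The log2 differences ranged from -0.29 for Gsn (4 of 5 animals at 42 dpi below all at 28 dpi, adjusted p = 0.199) to 0.13 for Mal (adjusted p = 0.474). That of Cldn11 was 0.01 (95% interval -0.22 to 0.24) and that of Myrf was -0.22 (-0.48 to 0.04), so neither a return toward sham nor a further change was resolved with 5 animals per group. Over the 6 groups together, 7 of the 9 genes passed the F test, against 31.6% of all genes. Mbp (adjusted p = 0.137) and Opalin (0.0590) did not.

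The genes varied together between animals of the same group. After the group means were subtracted, Pearson's r between pairs of the 9 genes over the 29 animals had a median of 0.741 (36 pairs), and among Mbp, Mog, Cnp, Mobp and Mal it lay between 0.80 and 0.954. Myrf stood apart, with r from -0.02 to 0.25 with the others. The values of an animal come from 1 dissection and 1 library, so these are descriptions of shared samples. Among the 10 genes whose within-group values followed the mean of the 9 most closely were Gatm, Apod, Stmn4, Klk6, Dbndd2, Bcas1, Plekhb1, Tmem88b and Pea15a (r = 0.879), out of 15486 genes with a mean of at least 1 CPM. Of the 10, 6 were in the wider myelin list described next.

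**Figure D4:**
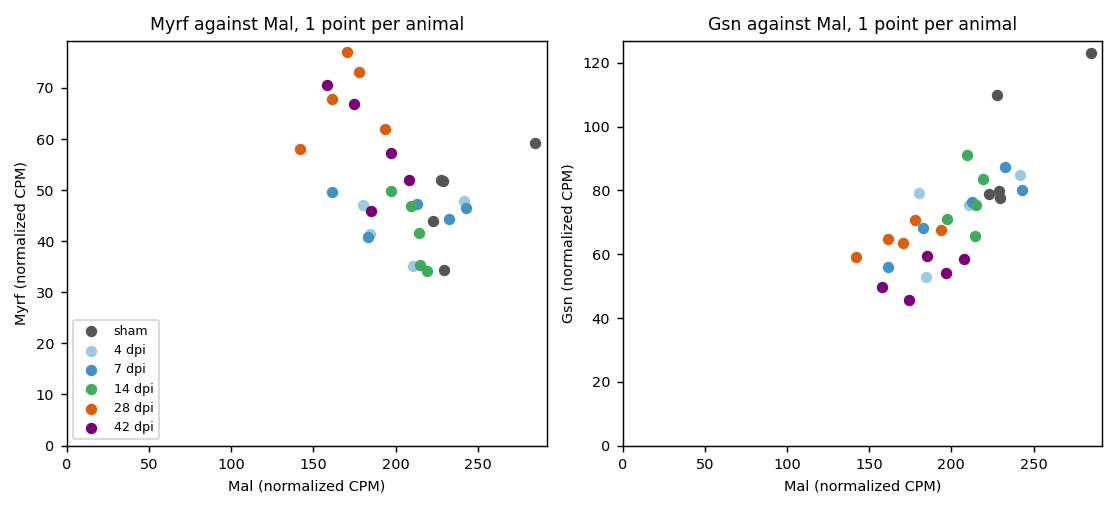
Myrf (left) and Gsn (right) against Mal, all in normalized CPM on linear axes, 1 point per animal and 1 color per group. At 28 dpi the ratio of Myrf to Mal was 0.320 to 0.452, above the sham range of 0.150 to 0.228, and at 42 dpi the ratio of Gsn to Mal was 0.262 to 0.322, below the sham range of 0.338 to 0.483.

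Other myelin and mature oligodendrocyte genes were counted from a list of 40, of which 39 were in the table. At 28 dpi 16 fell and 1 rose (13.0% and 11.9% of all genes), with a median log2 fold change of -0.28, compared with -0.44 for the 9 members and a value within 0.01 of 0 for all genes. Among the largest falls were those of Gal3st1 (-0.47, limma adjusted p = 0.0103), the sulfotransferase of the myelin lipid sulfatide, Hapln2 (-0.45, 0.00777), a link protein of the node of Ranvier, and Apod (-0.43, 0.0289), the lipid carrier apolipoprotein D. Ppp1r14a (-0.42, 0.0464) and Car2 (-0.39, 0.00980), a carbonic anhydrase of oligodendrocytes, followed. Ppp1r14a did not pass with quantile normalization (adjusted p = 0.0558), median centring (0.0512) or no mean trend (0.0601). The gene that rose was Cntn2 (0.22, adjusted p = 0.0462), the axonal and glial adhesion protein contactin-2, named after its value was seen. It was at -0.56 with the same sum in every animal (0.16 above the median gene), and did not pass with quantile normalization (adjusted p = 0.0599), without the mean trend (0.0648) or with the length and GC correction (0.183). At 42 dpi none of the 39 passed in limma (23 at an unadjusted p under 0.05, as were 2507 of all 16995 genes), and 38 had a log2 fold change below 0 (median -0.25). With Rn18s-rs5 as a covariate none of the 39 passed at 28 dpi either (18 at an unadjusted p under 0.05, median -0.27), and without the 8 animals none passed (7 at an unadjusted p under 0.05) and the median was -0.12.

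Myelin membrane needs cholesterol made in the tissue. Of 18 genes of cholesterol synthesis, 8 fell at 28 dpi and none rose (median log2 fold change -0.30, with 13.0% of all genes falling), and 14 fell from 14 to 28 dpi (21.9% of all genes). Ebp (-0.52, limma adjusted p = 0.00242), Idi1 (-0.47, 0.00167), Fdps (-0.43, 0.0186), Msmo1 (-0.42, 0.00145), Hmgcs1 (-0.40, 0.00156), the synthase at the entry of the pathway, and Cyp51 (-0.40, 0.00145) had the largest falls. Dhcr7 (0.07), a reductase at the end of the pathway, did not pass. All cells of the cord express this pathway. At 42 dpi none of the 18 passed in limma (9 at an unadjusted p under 0.05) and all 18 were below 0 (median -0.21). With Rn18s-rs5 as a covariate none passed at 28 dpi (8 at an unadjusted p under 0.05, median -0.25), while 14 again fell from 14 to 28 dpi. With the same sum in every animal none passed in that step, although all 18 were below 0 (median -0.60, with the median gene at -0.22). Without the 8 animals with high ribosomal RNA none passed in either comparison, with medians of -0.20 and -0.24.

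Myrf was not the only lineage regulator that rose at 28 dpi. Of 7 oligodendrocyte transcription factors apart from Myrf, 3 rose, as did 11.9% of all genes: Tcf7l2 (1.86 to 3.16 CPM, log2 fold change 0.63, limma adjusted p = 0.0124), the Wnt pathway factor of newly forming oligodendrocytes, Zfp488 (0.39, 0.00679) and Zfp536 (0.29, 0.0184). Sox10 (-0.02), Olig2 (-0.01), Olig1 (-0.20) and Nkx2-2 (0.14) did not pass. With the same sum in every animal the 3 risers were at -0.01, -0.39 and -0.49, against -0.73 for the median gene. With Rn18s-rs5 as a covariate they were at 0.64, 0.32 and 0.16, and without the 8 animals at 0.87, 0.47 and 0.09, and none passed in either fit. Among 8 precursor genes Gpr17, a receptor of committed precursors, fell (-0.34, limma adjusted p = 0.0257) and Ptprz1, a receptor phosphatase, rose (0.22, 0.0304), which became -0.56 with the same sum. With the length and GC correction Zfp536 (0.19, adjusted p = 0.0646) and Ptprz1 (0.05, 0.583) did not pass. Pdgfra (-0.10), the defining receptor of precursors, did not pass. At 42 dpi none of the 8 precursor genes passed in limma (6 at an unadjusted p under 0.05, as were 2507 of all genes). Of the 8, 7 were below 0, with a median of -0.28, against -0.25 for the wider myelin list.

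**Figure D5:**
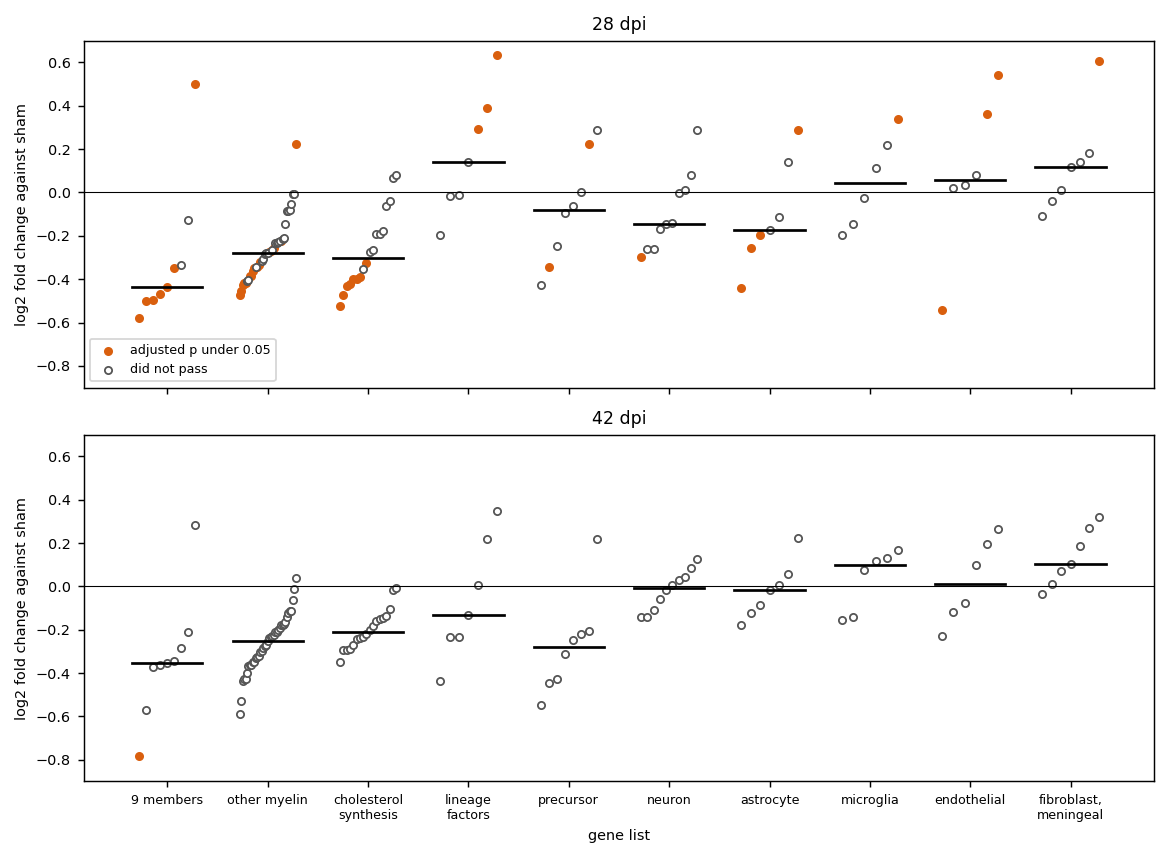
Log2 fold changes against sham (y axis) of the genes of each list (x axis) at 28 dpi (top) and 42 dpi (bottom), 1 point per gene, with the median of each list as a line. Filled points passed the limma test. At 28 dpi the medians of the 9 members (-0.44), the other myelin genes (-0.28) and cholesterol synthesis (-0.30) lay below those of the neuronal (-0.14) and astrocytic (-0.17) lists.

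Markers of other cells were counted beside these results. At 28 dpi 1 of 10 neuronal genes fell (Snap25, -0.30, limma adjusted p = 0.0160), the list median was -0.14, and the summed level of the list was 5209 to 5776 CPM against 5185 to 7608 in sham animals. Of 7 astrocyte genes 3 fell (Gjb6, -0.44; Aqp4, -0.26; Aldh1l1, -0.20) and the glutamate transporter Slc1a2 rose (0.29), with a sum of 2883 to 3340 against 2499 to 3026. Slc1a2 alone made up most of this sum (means of 2407 CPM at 28 dpi and 1969 in sham animals). Of the 7 genes 5 were below 0, with a median of -0.17. Microglia (Cx3cr1 rose, 0.34; sum 91.3 to 125.7 against 95.4 to 107.8), endothelium (Cdh5, 0.54, and Flt1, 0.36, rose and Ly6c1, -0.54, fell; sum 116 to 180 against 114 to 138) and fibroblasts (Col1a1 rose, 0.61; sum 39.1 to 45.4 against 35.8 to 41.6) were also counted, against 13.0% of all genes that fell and 11.9% that rose. No gene of these lists was at 0 throughout a group. Of the 3 Schwann cell genes in the table (Ncmap, Drp2 and Sox2) Drp2 rose (0.27, limma adjusted p = 0.00433), and their sum was 47.5 to 50.8 CPM against 39.7 to 47.0. Ncmap (0.21) and Sox2 (-0.0020) did not pass, and Drp2 (mean 33.6 CPM at 28 dpi) made up most of the sum. With the defining genes absent, the sum does not measure Schwann cells. The genes named here as rising were between -0.51 and -0.09 with the same sum in every animal, where the median gene was at -0.73. The call of Slc1a2 was lost with quantile normalization (0.18, limma adjusted p = 0.240), and those of Slc1a2 (0.12, 0.232) and Flt1 (0.18, 0.216) with the length and GC correction. Aldh1l1 did not pass with quantile normalization (-0.16, adjusted p = 0.0964) or median centring (-0.17, 0.0932). The summed level of the 9 members was 3137 to 4600 CPM at 28 dpi and 4333 to 6503 in sham animals. Mbp, which did not pass, made up most of it (means of 2283 and 2877 CPM). From 14 to 28 dpi, when 7 members fell and over all genes 21.9% fell and 21.0% rose, 4 of 10 neuronal genes fell (Stmn2, -0.51; Nefl, -0.49; Tubb3, -0.44; Snap25, -0.42), with a list median of -0.17 and a summed level of 6059 to 8503 CPM at 14 dpi. Of 6 microglial genes 3 fell in this step, among them P2ry12 (-0.40) and Tmem119 (-0.36), all 6 were below 0 and the median was -0.38, against -0.36 for the members, with a sum of 110.3 to 144.1 CPM at 14 dpi. Of the astrocyte genes 1 fell and 1 rose, of the endothelial genes 1 fell and 2 rose, and 1 fibroblast and 1 Schwann cell gene rose. None of the neuronal or microglial genes passed in this step with the same sum in every animal or without the 8 animals with high ribosomal RNA. The genes of the step from 14 to 28 dpi were named after their values were seen. The part of other cell types in the fall of the myelin genes was not tested.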

How the data were processed

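RNA of dissected cervical cord was sequenced. The labels list 30 animals, of which 29 were analysed (A9-3 of the 4 dpi group was not used here). Groups came from the sample labels, and the study's methods were used to read Ctrl as sham. Per the study's methods, total RNA was depleted of ribosomal RNA and made into libraries with TruSeq RNA v2, and the authors quantified reads on mm10 with SALMON, summarised them with Tximport, removed genes with low expression and normalized with edgeR (version 3.14.0 under R 3.4.1 in the submitters' processing notes). The deposited score of a gene is this normalized CPM, rounded to 0.1. It is not a count, the sums of the animals ran from 714597 to 2256910, and depth is unknown, so the spread between animals is the measure of precision. The table's columns of the authors' own fold changes and p-values were not used.

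From these values log2(value + 0.5) was fitted with limma 3.58.1 (R 4.3.3, eBayes with a mean trend) over 29 animals and 6 groups, with Benjamini-Hochberg adjustment over 16995 genes; no gene was filtered. Fold changes are on this scale. A gene was called at an adjusted p under 0.05. A fold of 1.5 was also counted (0.585 on the log2 scale), which is lower than the limit of the study's own rule, worded there as a log2 fold change of 1.5. The contrasts were each time point against sham, 28 against 14 dpi and 42 against 28 dpi, with an F test over the groups. The script was checked on simulated data with known changes. Exon lengths came from GENCODE M21 (16919 genes) and promoters from RefSeq (GRCm38.p6).

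The 9 members, the gene lists and the tests were chosen with earlier results of these data known. Named were the 9 members, from each list up to 6 genes past the test at 28 or 42 dpi by size of change at 28 dpi, and the 10 genes most correlated with the mean of the members within groups. Genes of the lists that did not pass, and the ratios to Mal, were named after their values were seen. Alternatives were pseudocounts of 1 and 0.05, quantile normalization, median centring, the same sum in every animal, no trend, robust variance, a mean of at least 1, Rn18s-rs5 as a covariate, the label unit as a random block (consensus correlation -0.0441), a length and GC correction, fits of only the groups compared and leaving out each animal. A fit without animals over 200000 for Rn18s-rs5 was added after seeing the data. Some genes that these rules name are not reported here.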

Additional observations from a re-analysis of the deposited data

Results flagged for a closer look

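Of 54 sets of values (9 genes in 6 groups), 3 had 1 animal far from the others by Dixon's test, which by chance flags about 5% of sets. All 3 were the sham animal A12-2. Its Mbp value was 3832.2 CPM, with the nearest sham animal at 2753.9. Its Cldn11 value was 171.9 CPM, with the nearest at 133.4. Its Mal value was 284.8 CPM, with the nearest at 229.4.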

How the results depend on the processing

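The falls of Mog, Mobp, Cldn11, Mal and Gsn and the rise of Myrf at 28 dpi passed whichever single sham or 28 dpi animal was left out (animals of the 2 groups compared were left out, and for the F test each of the 29), while the number of members past the test then ran from 6 to 8 at 28 dpi (main 7), 0 to 2 at 42 dpi (main 1), 5 to 8 from 14 to 28 dpi (main 8) and 6 to 8 for the F test (main 7), and was 0 in each other comparison. At 42 dpi it was 0 without Ctrl A12-2 or 42d A1-1 and 2 without 42d A1-4 or A3-4, and from 14 to 28 dpi it was 5 without 28d A4-3. With the Rn18s-rs5 covariate it was 0 at 28 dpi. Without the 8 animals over 200000 for Rn18s-rs5 it was 0 at 28 dpi, 0 at 42 dpi, 1 from 14 to 28 dpi and 0 for the F test, in fits with fewer animals. With the same sum in every animal it was 2 at 42 dpi and 0 from 14 to 28 dpi, and at 42 dpi it was also 2 with median centring, the unit block, the length and GC correction and fits of only the groups compared. Over all genes, 2206 fell and 2024 rose at 28 dpi, against 815 and 1387 in the fit of only the groups compared, 11217 and 34 with the same sum, 0 and 0 with the covariate and 3 and 2 without the 8 animals. From 14 to 28 dpi 3726 fell and 3575 rose, against 635 and 81 with the same sum, 4385 and 2584 with the length and GC correction and 200 and 302 without the 8 animals. The sums used in the same-sum fit include Rn18s-rs5, so that fit is not independent of ribosomal RNA. The cause of these changes was not otherwise tested. No paired analysis was possible because the labels number animals within units, and only 1 unit (A3, with A3-1 and A3-3 at 28 dpi and A3-4 at 42 dpi) holds animals of more than 1 group. With the unit as a random block, the member call that differed in the 7 comparisons was that of Cldn11 at 42 dpi, which passed (-0.57, limma adjusted p = 0.0210). The correlation within units was negative (-0.0441). Over all genes 31 fell and 52 rose at 42 dpi in this fit, against 2 and 2 in the main fit. As most units lie within 1 group, unit and group cannot be told apart.

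Log2 fold changes that changed sign were, with quantile normalization, Mbp at 14 dpi (-0.30) and Cnp (-0.0022) and Cldn11 (-0.022) from 28 to 42 dpi, with median centring Cnp (-0.019) and Cldn11 (-0.017) from 28 to 42 dpi, and with the length and GC correction Cldn11 from 28 to 42 dpi (-0.036). With the same sum they were Mbp (-0.50) and Opalin (-0.23) at 14 dpi, Myrf at 28 dpi (-0.28) and 42 dpi (-0.27), and Myrf (0.016) and Opalin (0.14) from 28 to 42 dpi. Without the 8 animals they were Mbp at 14 dpi (-0.020), Opalin at 28 dpi (0.0068) and, from 28 to 42 dpi, Mbp (-0.25), Mog (-0.14), Cnp (-0.18), Mobp (-0.038) and Cldn11 (-0.14). Leaving out 1 animal gave ranges across 0 for Cnp (-0.19 to 0.010), Cldn11 (-0.13 to 0.023) and Opalin (-0.053 to 0.20) at 4 dpi, Myrf at 7 dpi (-0.17 to 0.024), Mbp (-0.042 to 0.13), Mog (-0.11 to 0.0043) and Cnp (-0.075 to 0.069) at 14 dpi, and Mbp (-0.036 to 0.12), Cnp (-0.076 to 0.053) and Cldn11 (-0.049 to 0.081) from 28 to 42 dpi. None of these comparisons had passed the test except Myrf at 28 dpi. No fit with counts was made here, because the values used are not counts, and depth limits are not given.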
